A study of Mus musculus with 6 samples.

Results

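The genes described here are 40 mouse genes of the interferon response, of nucleic acid sensing and of antigen presentation on MHC class I. They were taken by gene symbol from a count table of 55487 genes, not by their values, and fall into 4 classes: 19 interferon-stimulated effectors, 5 sensors of foreign nucleic acid with their partners, 6 STAT and IRF transcription factors, and 10 genes of antigen presentation. All 40 were found in the table. In 32 of them the counts were high enough for a test, and the other 8 are described by their summed counts. Poly(A) RNA was sequenced from 3 libraries of Ts1Cje cells and 3 of wild-type cells. Each group was grown from mouse embryonic stem cells of its genotype and harvested after 4 days with FGF2, BMP-4, activin A and VEGF, a regime meant to give primitive macrophage progenitors. Ts1Cje mice model Down syndrome through an extra copy of a distal segment of chromosome 16, and the study asks why Ts1Cje embryos have fewer microglia, the macrophages of the brain. The labels name no interferon and no virus among the additions. Samples are numbered as lots, and whether a lot is a cell line or a culture of its own is not said. The p-values therefore measure the spread between these libraries, which may be technical in part. Sex and strain background are not given in the labels.

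Interferons are secreted proteins that bind receptors at the cell surface and activate JAK kinases, which phosphorylate STAT proteins. A complex that contains STAT2 and IRF9 binds the interferon-stimulated response element (ISRE) and switches on antiviral effectors, while interferon gamma acts through the gamma-activated site (GAS). Sensors such as RIG-I recognise viral RNA in the cytoplasm and lead to production of interferon, and the same pathways raise the machinery that cuts proteins into peptides and loads them on MHC class I. Pluripotent stem cells are known for a weak response to interferon, for little MHC class I and for holding some effectors, such as the IFITM proteins, at a high level without it.

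The libraries held 16577065 to 19010856 counts, and 17315 genes were tested. The first principal component carried 79.1% of the variance and separated the genotypes, and wild-type replicate 1 lay nearest to the Ts1Cje libraries on it. Markers of several cell types differed between the groups, and these are given as values that moved together with the results below. Their counts stand beside those of all tested genes, of which 23.3% were higher and 20.5% lower in Ts1Cje by the edgeR test used below. The summed level of 15 endoderm markers was 381 to 461 TPM (a unit scaled for gene length) in wild-type and 1644 to 1891 TPM in Ts1Cje. Of these markers 14 rose and 1 fell. The 13 pluripotency markers summed to 192 to 589 TPM in wild-type, highest in replicate 1, and 1246 to 1954 TPM in Ts1Cje, with 10 higher. In the other direction, 12 endothelial markers summed to 388 to 394 TPM in wild-type and 56.2 to 102 TPM in Ts1Cje, with 9 of the 10 tested lower, and 14 early mesoderm markers summed to 3121 to 3456 TPM against 797 to 1245 TPM, with 8 lower. Of 20 macrophage and myeloid markers only 6 had enough counts for a test, and 2 of these rose (1 when replicate 2 or 3 of wild-type or replicate 1 or 2 of Ts1Cje was left out). The log2 fold changes of the 6 ran from 0.34 to 1.49. Ptprc, Cx3cr1, Fcgr1 and Cd33, which mark blood cells and macrophages, had 0 counts in all 6 libraries, while every other marker of this list had counts in at least 1 library. The 12 fibroblast and feeder markers summed to 50.1 to 127 TPM in wild-type and 13.2 to 13.8 TPM in Ts1Cje, with 6 of the 7 tested lower, and 9 germ cell markers summed to 35.6 to 41.5 TPM and 84.6 to 100.3 TPM, with 3 of the 6 tested higher. Of 9 tested trophoblast markers 4 rose and 3 fell. The summed macrophage level was 23.7 to 34.5 TPM in wild-type and 36.1 to 48.0 TPM in Ts1Cje. The part of these cell types in the results on the 40 genes was not tested. In bulk RNA, fewer cells of a type and less RNA per cell cannot be told apart.

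The 40 genes did not move as a block. With edgeR's quasi-likelihood test, adjusted over all 17315 genes at 0.05, 19 of the 32 tested members passed (59.4%), 9 of them higher and 10 lower in Ts1Cje. Among all tested genes 43.8% passed, 23.3% higher and 20.5% lower, so many genes of any kind differed in this comparison. By class, 58.3% of tested effectors, 50% of sensors, 66.7% of STAT and IRF factors and 60% of antigen presentation genes passed. The median log2 fold change, Ts1Cje over wild-type, was −0.01 for the 32 members and −0.01 for all tested genes. It hid changes in both directions, from −3.22 for Psmb8 to 2.84 for Xaf1. The CPM (counts scaled to library size, with TMM factors) of the 2 groups did not overlap in the same 19 members, against 55.2% of all tested genes. A change of at least 2-fold that also passed the test was seen in 13 members, against 18.1% of all tested genes. Without wild-type replicate 1, the library nearest to Ts1Cje, the same 19 members passed in the same direction. All adjusted p-values below are from that edgeR test, and each SE is that of the log2 fold change.

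**Figure D1:**
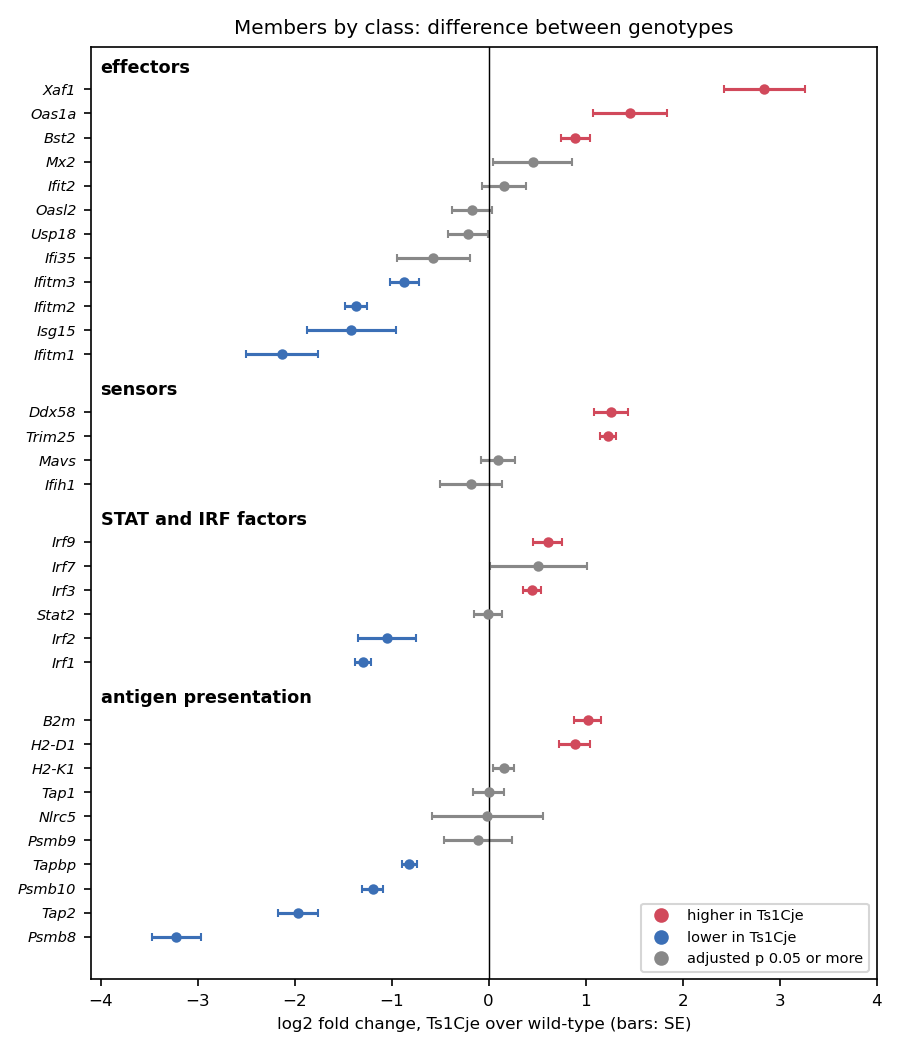
Log2 fold change (Ts1Cje over wild-type, horizontal axis) of the 32 tested members with bars of 1 SE, grouped by class and marked by whether the edgeR test passed. Members run from Psmb8 at −3.22 to Xaf1 at 2.84, and each class except the sensors holds members on both sides of 0 that passed.

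Upstream of these genes, interferon ligands were at or near 0 counts and the receptors were expressed. None of 21 interferon ligand genes had enough counts for a test, 18 had 0 counts in every library, and Ifnb1, the first interferon made after virus sensing, was among those at 0, a count that allows up to 3 in a group. Of the 10 receptor and kinase genes 6 were higher and 2 lower (80% passed, against 43.8% of all tested genes). Ifnar1, a subunit of the type I interferon receptor that lies in the triplicated segment, had 85.9, 94 and 98.3 CPM in wild-type replicates 1 to 3 and 100.2, 122 and 121 CPM in Ts1Cje replicates 1 to 3 (log2 fold change 0.30, SE 0.09, adjusted p = 0.0209). Its rise did not pass without wild-type replicate 2 (adjusted p = 0.0622), Ts1Cje replicate 2 (0.0769) or Ts1Cje replicate 3 (0.0822). Ifnar2, the other subunit, lies in the same segment and its libraries overlapped (log2 fold change −0.04, SE 0.15, adjusted p = 0.862). Among the other receptor chains, Ifngr2 (log2 fold change 0.95, SE 0.19, adjusted p = 0.00293) and Il10rb (log2 fold change 1.45, SE 0.28, adjusted p = 0.00232) are also triplicated, while Ifngr1 (log2 fold change 0.60, SE 0.15, adjusted p = 0.00976) and the lambda receptor chain Ifnlr1 (log2 fold change 2.31, SE 0.23, adjusted p = 4.53e-05) are not. Of the kinases, Tyk2 rose (log2 fold change 0.48, SE 0.10, adjusted p = 0.00404) and Jak1 was lower by a small amount (log2 fold change −0.26, SE 0.08, adjusted p = 0.0304), a call that was lost when replicate 2 or 3 of wild-type or replicate 1 or 2 of Ts1Cje was left out. The count of lower genes, Jak1 and Jak2, was accordingly 0 without wild-type replicate 2 or Ts1Cje replicate 1.

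Among the 6 STAT and IRF factors, Irf1 and Irf2 fell while Irf3 and Irf9 rose. Irf1, an activator of interferon-stimulated and MHC class I genes that is itself induced by interferon gamma, had 61.3, 58.7 and 58.2 CPM in wild-type replicates 1 to 3 and 23.3, 25.4 and 24 CPM in Ts1Cje replicates 1 to 3. The groups lay far apart, and Irf1 was 2.45-fold lower in Ts1Cje (log2 fold change −1.29, SE 0.08, adjusted p = 3.56e-06). A TEC gene model on the opposite strand, Gm17334, overlaps Irf1 and was also lower (log2 fold change −1.28), and the strand used in counting is not given, so reads of these genes cannot be told apart. Irf2, a relative of Irf1 that binds the same element and can act as a repressor, had 6.93, 11.4 and 12 CPM in wild-type replicates 1 to 3 and 2.96, 5.66 and 6.03 CPM in Ts1Cje replicates 1 to 3. All Ts1Cje libraries were below all wild-type ones, with a wide spread in both groups (log2 fold change −1.05, SE 0.30, adjusted p = 0.0189). Without wild-type replicate 2 or 3 the call was lost, with an adjusted p of 0.0680 and 0.0624.

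Irf3, which is phosphorylated after virus sensing and switches on the interferon beta gene, had 32.6, 34.5 and 32.6 CPM in wild-type replicates 1 to 3 and 41.3, 46.1 and 48.9 CPM in Ts1Cje replicates 1 to 3, a rise of 1.37-fold (log2 fold change 0.45, SE 0.09, adjusted p = 0.00307). Irf9, the DNA-binding part of the complex with STAT2, had 12.4, 14.1 and 10.4 CPM in wild-type replicates 1 to 3 and 16.4, 20.8 and 19.2 CPM in Ts1Cje replicates 1 to 3 (log2 fold change 0.61, SE 0.15, adjusted p = 0.00872). Both rises were small, and in both genes every Ts1Cje library was above every wild-type library. Irf3 shares bases with Bcl2l12 and Irf9 with Rnf31, and neither neighbour passed the test. Irf7, the factor that amplifies interferon production, had only 20, 24 and 5 counts in the wild-type libraries and 22, 17 and 30 counts in the Ts1Cje libraries, and its libraries overlapped (log2 fold change 0.51, SE 0.50, adjusted p = 0.439). Stat2 overlapped as well, with 20.2, 25.9 and 28 CPM in wild-type replicates 1 to 3 and 21.7, 24.2 and 28.1 CPM in Ts1Cje replicates 1 to 3 (log2 fold change 0.00, SE 0.15, adjusted p = 0.991). Of 13 other tested IRF factors and inhibitors of the pathway, 3 rose and 3 fell (46.2% passed, near the 43.8% of all tested genes). Those that rose include the phosphatase gene Ptpn6 (log2 fold change 1.28, SE 0.13, adjusted p = 3.80e-05) and Irf2bp2, which encodes a partner of IRF2 (log2 fold change 0.71, SE 0.09, adjusted p = 1.97e-04). The phosphatase gene Ptpn11 fell (log2 fold change −0.28, SE 0.05, adjusted p = 0.00230). Without wild-type replicate 1 the count of lower genes in this list was 5.

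Irf1 and Irf2 each carry a match to a response element within 250 bases before their start, shown here because both genes fell in Ts1Cje. The capitals mark the GAS core TTCNNNGAA in Irf1, which reads the same on both strands, and the ISRE core in Irf2, here GAAA, any 2 bases and GAAA again. The Irf1 stretch is chr11:53769868-53769987 on the plus strand, from 146 to 27 bases before the start site, and the Irf2 stretch is chr8:46739495-46739524 on the plus strand, from 250 to 221 bases before it. The Irf2 stretch lies at the far edge of the window searched and overlaps an annotated exon of another gene, Gm16675. A GAS core in the Irf2 promoter runs past the end of the stretch shown and is not marked. Both stretches are read from RefSeq promoters on GRCm38.p6, the assembly also called mm10.
Irf1: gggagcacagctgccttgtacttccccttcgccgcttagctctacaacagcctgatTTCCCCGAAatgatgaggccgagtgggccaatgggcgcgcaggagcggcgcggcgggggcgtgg
Irf2: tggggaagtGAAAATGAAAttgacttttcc

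Of the 4 tested sensor genes 2 rose and none fell. Ddx58, which encodes the RNA sensor RIG-I, had 6.66, 5.57 and 4.55 CPM in wild-type replicates 1 to 3 and 12.7, 13.1 and 14.5 CPM in Ts1Cje replicates 1 to 3, a rise of 2.40-fold (log2 fold change 1.26, SE 0.18, adjusted p = 3.11e-04). Trim25, the ubiquitin ligase that activates RIG-I, had 52.8, 47.9 and 45.6 CPM in wild-type replicates 1 to 3 and 118, 106 and 119 CPM in Ts1Cje replicates 1 to 3, a rise of 2.34-fold (log2 fold change 1.23, SE 0.08, adjusted p = 4.25e-06). The 3 Ts1Cje libraries were above the 3 wild-type libraries in both genes. Ifih1, which encodes the RNA sensor MDA5, had 39, 31 and 32 counts in the wild-type libraries and 39, 27 and 22 counts in the Ts1Cje libraries and did not pass (log2 fold change −0.18, SE 0.32, adjusted p = 0.683). Mavs, the mitochondrial adaptor through which both RNA sensors signal, had 13.5, 16.5 and 22 CPM in wild-type replicates 1 to 3 and 17.3, 17.6 and 20.8 CPM in Ts1Cje replicates 1 to 3 (log2 fold change 0.10, SE 0.18, adjusted p = 0.685), so the groups overlapped. Zbp1, a sensor of left-handed nucleic acid, was too low for a test, with 5 counts summed over the wild-type libraries and 2 over the Ts1Cje libraries. The ratio of Zbp1, scaled by library size, was 0.408 with a 95% interval of 0.0389 to 2.49, which covers counting error only.

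In the wider list of sensors and adaptors, 9 of 17 tested genes rose and 3 fell (70.6% passed, against 43.8% of all tested genes). Tlr3, the receptor for double-stranded RNA in endosomes, rose (log2 fold change 2.67, SE 0.30, adjusted p = 7.96e-05), as did its adaptor Ticam1 (log2 fold change 0.79, SE 0.15, adjusted p = 0.00214) and Zc3hav1, a protein that binds viral RNA (log2 fold change 0.78, SE 0.10, adjusted p = 1.82e-04). Sting1, the adaptor of cytoplasmic DNA sensing, moved the other way, with 2.11, 2.44 and 2.41 CPM in wild-type replicates 1 to 3 and 0.219, 0.179 and 0.262 CPM in Ts1Cje replicates 1 to 3 (log2 fold change −3.35, SE 0.38, adjusted p = 8.67e-05). The count of lower genes in this list was 1 when replicate 2 or 3 of wild-type or replicate 1 or 3 of Ts1Cje was left out. The Ddx58 promoter carries an ISRE core on the opposite strand, in capitals, at chr4:40239804-40239833 on the minus strand (RefSeq, GRCm38.p6). This stretch runs from 8 bases before the start site to base 22 of the transcript.
Ddx58: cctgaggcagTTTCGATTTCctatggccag

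**Figure D2:**
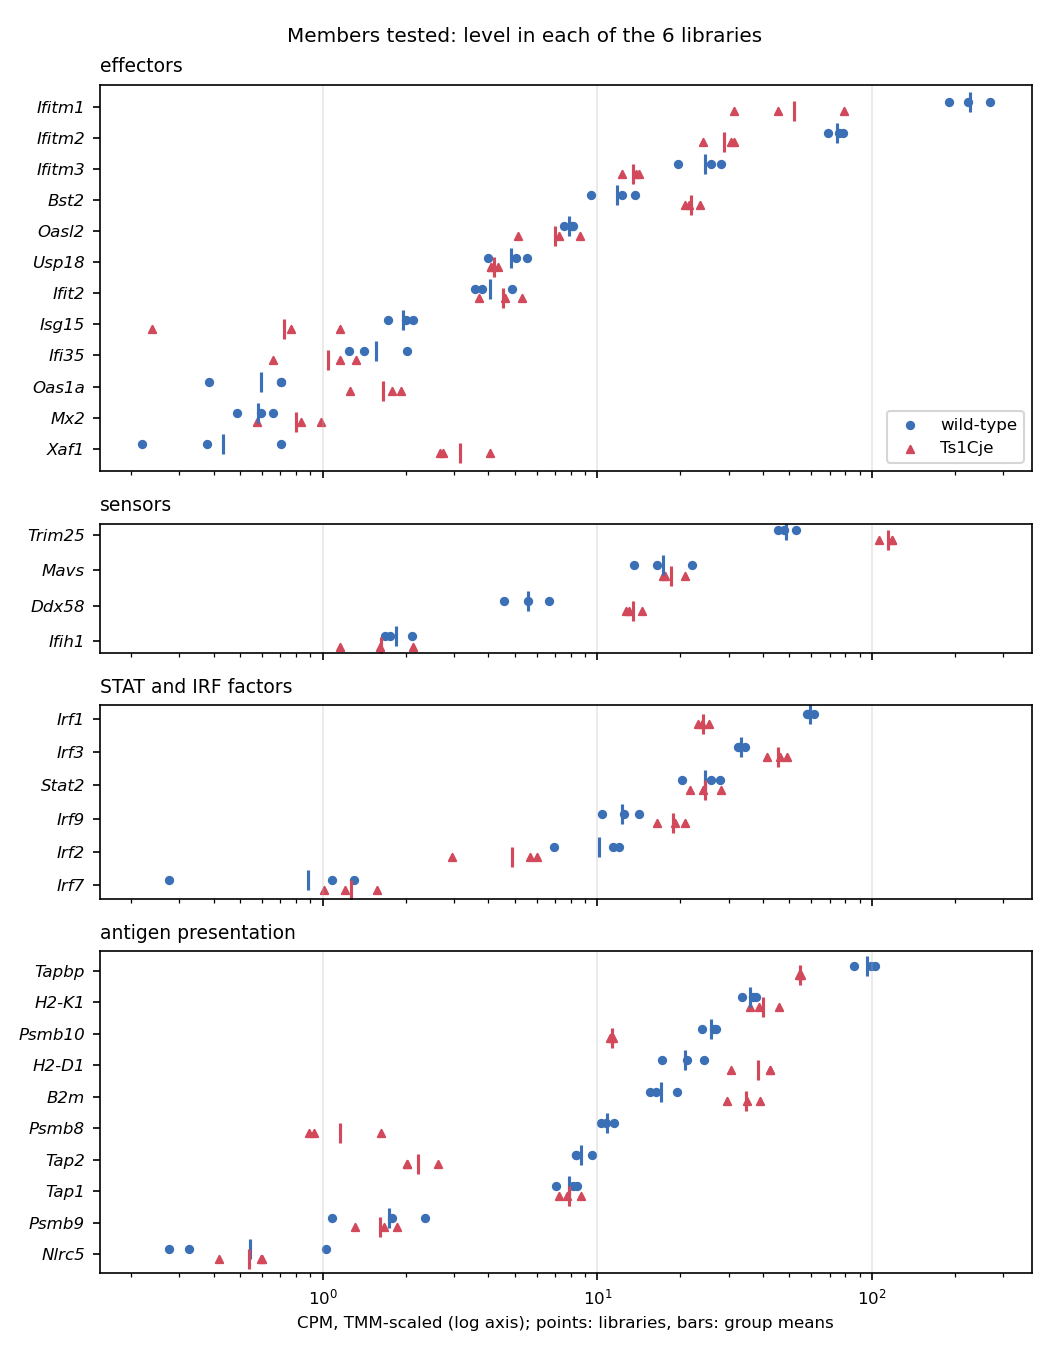
Level of the 32 tested members, 1 line each, in CPM on a log scale (horizontal axis), with circles for the 3 wild-type libraries, triangles for the 3 Ts1Cje libraries and bars for group means. In Ifitm1, Irf1, Psmb8 and Tap2 every Ts1Cje library lies below every wild-type library, and in Trim25, Ddx58, B2m and H2-D1 every one lies above.

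Of the 12 tested effectors, 4 fell and 3 rose. Most effector RNA came from the IFITM genes, and all 3 of them fell. These genes encode small membrane proteins that block the entry of viruses. Ifitm1 had 268, 224 and 190.2 CPM in wild-type replicates 1 to 3 and 45.6, 78.8 and 31.5 CPM in Ts1Cje replicates 1 to 3, and was 4.39-fold lower in Ts1Cje (log2 fold change −2.13, SE 0.37, adjusted p = 0.00756). Ifitm2 had 75.7, 78.2 and 69 CPM in wild-type replicates 1 to 3 and 30.7, 31.5 and 24.2 CPM in Ts1Cje replicates 1 to 3, 2.58-fold lower (log2 fold change −1.37, SE 0.11, adjusted p = 1.16e-05). Ifitm3 had 25.9, 19.6 and 28.2 CPM in wild-type replicates 1 to 3 and 13.9, 14.1 and 12.3 CPM in Ts1Cje replicates 1 to 3, 1.83-fold lower (log2 fold change −0.87, SE 0.15, adjusted p = 0.00115). In each gene the groups were apart, and the Ts1Cje libraries spread most in Ifitm1. Per length, Ifitm1 had the highest level of all 40 members in each wild-type library, with 670 ± 130 TPM (SD, n = 3), and Ifitm2 followed with 365 ± 29.9 TPM. In Ts1Cje the levels of Ifitm1 (154 ± 73.7 TPM), Ifitm2 (142 ± 20.2 TPM) and B2m (129.9 ± 16.9 TPM) lay within their spread of each other. Ifitm1 was the highest of these only in Ts1Cje replicate 2 (236 TPM). Ifitm2 was highest in replicate 1 (149.8 TPM) and B2m in replicate 3 (147 TPM). The 3 genes made up 93.0% to 95% of the summed effector TPM in wild-type and 70.8% to 82.5% in Ts1Cje. The other 16 effectors together summed to 59.9 to 76.1 TPM in wild-type and 97.9 to 112 TPM in Ts1Cje. The IFITM genes lie near each other on chromosome 7 and resemble each other in sequence, and how reads with several alignments were counted is not given, so the split between them is uncertain.

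Isg15, a ubiquitin-like protein that is joined to other proteins after interferon, was low and lower still in Ts1Cje. It had 37, 32 and 39 counts in the wild-type libraries and 14, 4 and 22 counts in the Ts1Cje libraries (log2 fold change −1.41, SE 0.46, adjusted p = 0.0301). The groups did not overlap, and the Ts1Cje libraries were spread widely, with replicate 2 lowest. The call was lost without wild-type replicate 2 (adjusted p = 0.0591), wild-type replicate 3 (0.0774), Ts1Cje replicate 1 (0.0692) or Ts1Cje replicate 2 (0.0601). Bst2, which encodes tetherin, a membrane protein that holds budding viruses at the cell surface, rose instead. Its level was 12.3, 9.47 and 13.7 CPM in wild-type replicates 1 to 3 and 20.8, 21.5 and 23.6 CPM in Ts1Cje replicates 1 to 3, 1.86-fold higher in Ts1Cje (log2 fold change 0.89, SE 0.15, adjusted p = 9.85e-04). Oas1a, an enzyme that makes the second messenger for RNase L, had 13, 13 and 7 counts in the wild-type libraries and 35, 21 and 34 counts in the Ts1Cje libraries (log2 fold change 1.46, SE 0.38, adjusted p = 0.0115). Xaf1, an interferon-induced promoter of cell death, had 13, 7 and 4 counts in the wild-type libraries and 74, 46 and 51 counts in the Ts1Cje libraries and the largest rise among the members, 7.17-fold (log2 fold change 2.84, SE 0.42, adjusted p = 4.30e-04). The 3 risen effectors had no overlap between groups, yet Oas1a and Xaf1 rest on few reads, and Oas1a shares long stretches of sequence with other Oas1 genes.

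The remaining effectors with a test did not pass. Ifit2, which binds viral RNA, had a log2 fold change of 0.16 (SE 0.23, adjusted p = 0.610). Oasl2, an OAS-like protein, had −0.17 (0.525), Usp18, the enzyme that removes ISG15 and dampens the receptor, −0.21 (0.439), and Ifi35 −0.57 (0.251), where each number in parentheses is the adjusted p. Mx2, a gene of the antiviral MX GTPases in the triplicated segment, had 11, 9 and 12 counts in the wild-type libraries and 18, 14 and 11 counts in the Ts1Cje libraries (log2 fold change 0.45, SE 0.41, adjusted p = 0.402). The count table annotates both Mx2 and Mx1 as polymorphic pseudogenes. With the strain not given, whether these cells carry a working copy of either is not known. The tested genes within 2 Mb of Mx2 had a median log2 fold change of 0.38. Around the 40 members such medians ran from −0.23, near Irf2, to this value. The 7 effectors without a test had few counts. Ifit1 had 13 counts summed over wild-type and 12 over Ts1Cje, Ifit3 had 5 and 9, Rsad2 had 20 and 31, and Ifi27 had 13 and 20. Rtp4 had 17 and 11, and Oas2 had 2 and 1. The scaled ratio of Rsad2, which encodes viperin, was 1.58 with a 95% interval of 0.873 to 2.93, and the intervals of Ifit1, Ifit3, Oas2, Ifi27 and Rtp4 also held 1. Mx1, the neighbour of Mx2 in the triplicated segment, had 0 counts in all wild-type libraries and 6 over the Ts1Cje libraries. With the wild-type group set to 3 counts the scaled ratio was 2.04. This ratio takes the 6 counts of Ts1Cje as exact, so it is not a lower limit that covers counting error. At this depth counting error alone covers the differences in the 6 genes with an interval, although in Ifi27, with 5, 4 and 4 counts in the wild-type libraries and 9, 5 and 6 counts in the Ts1Cje libraries, the groups did not overlap in CPM.

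The promoters of Isg15, Oas1a and Bst2 each hold repeats of the ISRE core, and they are shown because these genes moved in different directions and share it. Capitals mark every match to this core (GAAA, any 2 bases, GAAA) on either strand, which overlap each other here, and to the GAS core TTCNNNGAA. The stretches lie on the minus strand at chr4:156200826-156200945 for Isg15, which fell, at chr5:120907526-120907645 for Oas1a, which rose, and at chr8:71537535-71537654 for Bst2, which rose. They end 8, 1 and 63 bases before the start site. Isg15 has 3 matches to the ISRE core in its stretch, and the other two have 2 matches each, beside 1 match to the GAS core. Ifitm2, which fell, has 1 match in a stretch at chr7:140955988-140956017 on the minus strand, and this RefSeq promoter does not read into a transcript of the same symbol in the reference. All are from RefSeq on GRCm38.p6.
Isg15: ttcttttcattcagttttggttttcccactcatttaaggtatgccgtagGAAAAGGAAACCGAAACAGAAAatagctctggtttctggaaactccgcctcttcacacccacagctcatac
Oas1a: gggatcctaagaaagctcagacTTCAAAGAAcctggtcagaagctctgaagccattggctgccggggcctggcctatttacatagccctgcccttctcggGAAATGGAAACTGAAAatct
Bst2: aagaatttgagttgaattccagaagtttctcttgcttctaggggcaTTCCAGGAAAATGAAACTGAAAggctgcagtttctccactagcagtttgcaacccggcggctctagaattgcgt
Ifitm2: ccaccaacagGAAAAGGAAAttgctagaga

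Across the members with a RefSeq promoter, a window from 250 bases before to 50 bases after each start, 13 of 31 (41.9%, exact 95% interval 24.5% to 60.9%) held the ISRE core on either strand. Among all 27025 genes with such a window 3.99% held it. The share was 8 of 13 effectors and 1 of 8 antigen presentation genes. It was 4 of 9 among members that rose (B2m, Bst2, Ddx58 and Oas1a) and 4 of 9 among members that fell (Ifitm2, Ifitm3, Irf2 and Isg15). Of the 10 tested members that did not pass, 2 held it, and so did all 3 untested members with a window, Ifit1, Ifit3 and Rsad2. The GAS core was found in 8 of 31 members (25.8%) and in 9.55% of all genes, with 2 of 9 members that rose and 4 of 9 that fell. A shorter form, GAAANNGAA, was found in 14 of 31 members and in 9.76% of all genes. A match is a match of letters and not a measured binding site, and the 9 members without a window in the table were not searched. Of the 35 windows of the 31 members, 27 read into a transcript of the same symbol in the reference. The windows with a match in Ifitm2 and Ifitm3 did not, yet they are counted above.

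**Figure D3:**
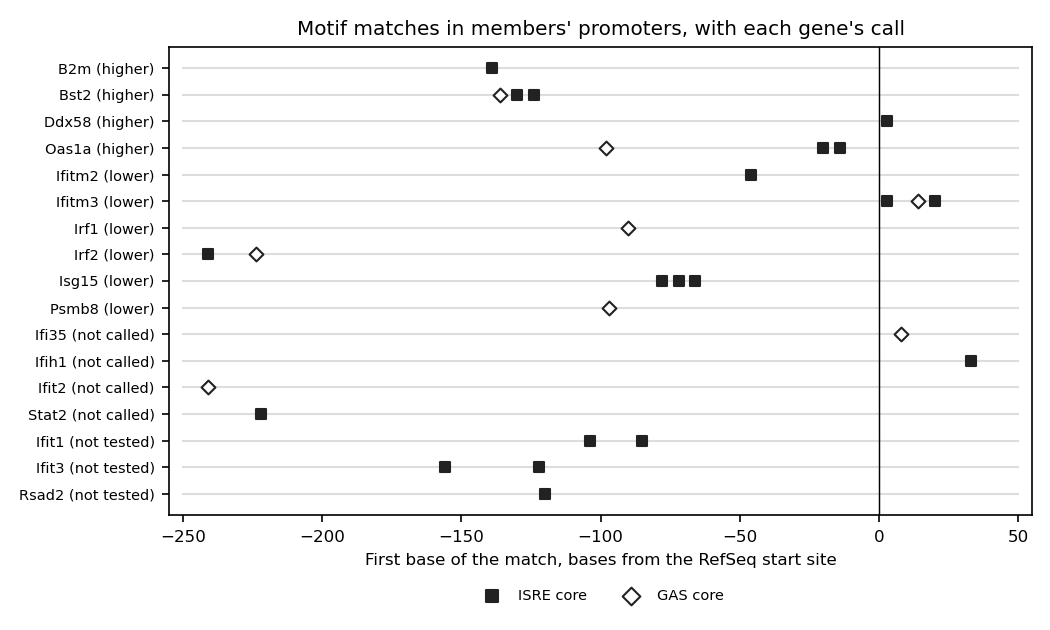
Position of matches to the ISRE core and the GAS core in the promoter windows of members, in bases from the start site (horizontal axis, 250 before to 50 after), 1 line for each member with a match. Members that rose and members that fell both hold matches, 4 of 9 in each case for the ISRE core.

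Other interferon-stimulated genes also moved in both directions. Of the 30 tested among 46, 10 rose and 7 fell (56.7% passed, against 43.8% of all tested genes). Gbp2, a GTPase induced by interferon gamma, fell from 42.7, 33.6 and 49.1 CPM in wild-type to 2.25, 1.73 and 3.67 CPM in Ts1Cje (log2 fold change −4.02, SE 0.26, adjusted p = 8.01e-06). Irgm1, a GTPase of the same arm, fell as well (log2 fold change −2.67, SE 0.15, adjusted p = 1.76e-06). Lgals9, which encodes galectin-9 (log2 fold change 3.28, SE 0.20, adjusted p = 3.09e-06), and Ifi30, a thiol reductase of lysosomes (log2 fold change 2.30, SE 0.14, adjusted p = 6.95e-06), rose.

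Of the 10 antigen presentation genes, all tested, 4 fell and 2 rose. Psmb8, Psmb10, Tap2 and Tapbp, which act in cutting, transporting and loading peptides, fell, and the MHC class I chain H2-D1 and its partner B2m rose. Psmb8, a catalytic subunit of the immunoproteasome (LMP7), had 10.3, 10.8 and 11.5 CPM in wild-type replicates 1 to 3 and 0.932, 0.894 and 1.63 CPM in Ts1Cje replicates 1 to 3 and was 9.30-fold lower in Ts1Cje (log2 fold change −3.22, SE 0.25, adjusted p = 9.44e-06). Psmb10, the immunoproteasome subunit MECL-1, had 24.1, 26.5 and 26.9 CPM in wild-type replicates 1 to 3 and 11.1, 11.4 and 11.3 CPM in Ts1Cje replicates 1 to 3, 2.29-fold lower (log2 fold change −1.20, SE 0.11, adjusted p = 2.62e-05). Psmb9, the third immunoproteasome subunit (LMP2), had 33, 20 and 43 counts in the wild-type libraries and 34, 28 and 25 counts in the Ts1Cje libraries, and its libraries overlapped (log2 fold change −0.11, SE 0.35, adjusted p = 0.823). Psmb9 had the fewest counts of the 3 subunits and a wide spread between libraries.

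Each of these subunits replaces a constitutive one in the proteasome, and the constitutive partners Psmb5, Psmb6 and Psmb7 did not pass the test. Psmb8 stood at 3.46% ± 0.19 of the TPM of Psmb5 in wild-type and 0.38% ± 0.16 in Ts1Cje (SD, n = 3). Psmb10 stood at 30.8% ± 2.71 of Psmb7 in wild-type and 12.6% ± 0.70 in Ts1Cje. Psmb9 stood at 0.546% ± 0.196 of Psmb6 in wild-type and 0.503% ± 0.079 in Ts1Cje. The log2 ratio differed by −3.27 for Psmb8, −1.29 for Psmb10 and −0.06 for Psmb9, Ts1Cje minus wild-type. A 2-sided exact permutation test gave p = 0.1 for Psmb8 and Psmb10 (0.15 adjusted over the 3 ratios) and p = 0.9 for Psmb9, and 0.1 is the smallest p that 3 against 3 libraries allow. Of the 14 genes of the constitutive core, 1 rose and 2 fell (21.4% passed, against 43.8% of all tested genes). The lower ones were Psma7 (log2 fold change −0.99, SE 0.06, adjusted p = 2.82e-06) and Psmb1. The count of lower genes was 1 when any library other than wild-type replicate 1 was left out. Psmb10 lies within the span of Gm16156 on the opposite strand, which rose (log2 fold change 1.03), against the direction of Psmb10.

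**Figure D4:**
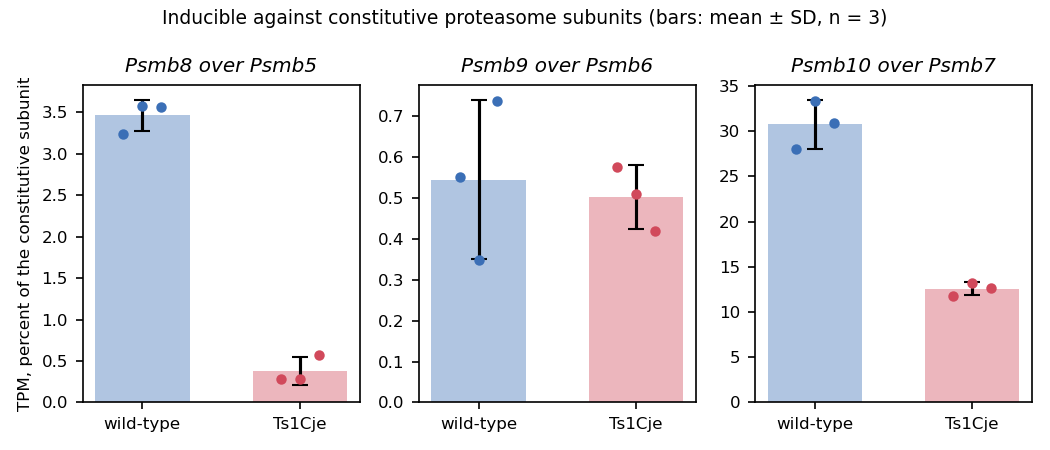
TPM of each inducible proteasome subunit as a percent of its constitutive partner (vertical axis, a separate scale in each panel) in wild-type and Ts1Cje, with points for the 3 libraries of each group and bars for mean ± SD. The Psmb8 share was 3.46% in wild-type and 0.38% in Ts1Cje, the Psmb10 share 30.8% and 12.6%, and the Psmb9 share overlapped between the groups.

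Of the 2 subunits of the peptide transporter, Tap2 fell and Tap1 did not pass. Tap2 had 8.33, 9.53 and 8.33 CPM in wild-type replicates 1 to 3 and 2.03, 2.03 and 2.62 CPM in Ts1Cje replicates 1 to 3 and was 3.91-fold lower in Ts1Cje (log2 fold change −1.97, SE 0.20, adjusted p = 5.03e-05). Tap1, its partner in the transporter that carries peptides into the endoplasmic reticulum, had 8.17, 7.09 and 8.44 CPM in wild-type replicates 1 to 3 and 7.23, 8.70 and 7.77 CPM in Ts1Cje replicates 1 to 3 (log2 fold change 0.00, SE 0.16, adjusted p = 0.997), and its groups overlapped. Tapbp, which encodes tapasin and bridges the transporter to MHC class I, had 103, 86 and 99.5 CPM in wild-type replicates 1 to 3 and 54.5, 54 and 55 CPM in Ts1Cje replicates 1 to 3 (log2 fold change −0.82, SE 0.08, adjusted p = 4.05e-05). Tapbp shares bases with Zbtb22 and with Gm19412, both of which were lower by less (log2 fold changes −0.33 and −0.66).

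Psmb9, Tap1, Psmb8 and Tap2 lie side by side on chromosome 17 within 34.3 kb, from 34181987 to 34216321 on mm10. In that order the first pair did not pass and the second pair fell. Of the 154 tested genes within 2 Mb of Psmb8, members left out, 27.9% were lower and 14.3% higher. Over all tested genes these shares were 20.5% and 23.3%. Psmb8 and Tap2 both overlap the antisense gene Gm20496 (log2 fold change −3.12), and Tap2 also overlaps Gm15821 (−2.23). The reads of these overlapping genes cannot be told apart without the counting strand. Within 150 kb on either side of this span, a window chosen after the values were seen, 13 of 26 genes were tested, 7 fell and 1, Col11a2, rose. The 7 include Psmb8 and Tap2 themselves and 3 gene models, Gm20496, Gm15821 and BC051537, that overlap others of the 7, so they are not independent. The other two are the class II genes H2-Oa (log2 fold change −2.57, SE 0.41, adjusted p = 6.85e-04) and H2-Ab1 (log2 fold change −1.98, SE 0.40, adjusted p = 0.00273). Of 4 tested class II genes these 2 fell and none rose (50% passed, against 43.8% of all tested genes).

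**Figure D5:**
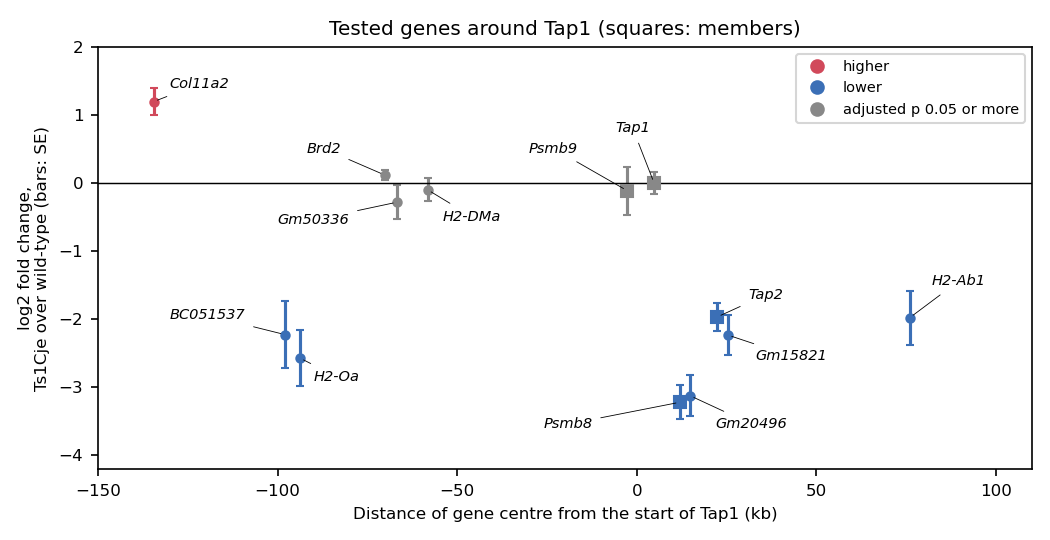
Log2 fold change (Ts1Cje over wild-type, vertical axis) of the 13 tested genes around Psmb9, Tap1, Psmb8 and Tap2, against distance in kb of each gene's centre from the start of Tap1 (horizontal axis). Psmb8 and Tap2 lie at −3.22 and −1.97, while Psmb9 and Tap1 lie at −0.11 and 0.00.

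B2m, the invariant chain of every MHC class I molecule, had 19.5, 15.5 and 16.3 CPM in wild-type replicates 1 to 3 and 35.1, 29.6 and 39.1 CPM in Ts1Cje replicates 1 to 3, 2.03-fold higher in Ts1Cje (log2 fold change 1.02, SE 0.13, adjusted p = 2.29e-04). H2-D1, a classical class I heavy chain, had 24.3, 17.2 and 21.1 CPM in wild-type replicates 1 to 3 and 42.5, 30.7 and 42.5 CPM in Ts1Cje replicates 1 to 3, 1.85-fold higher (log2 fold change 0.89, SE 0.16, adjusted p = 0.00193). In both genes each Ts1Cje library was above each wild-type one. H2-K1, another classical heavy chain, had 37.8, 33.5 and 36.9 CPM in wild-type replicates 1 to 3 and 38.8, 35.8 and 45.8 CPM in Ts1Cje replicates 1 to 3, with overlap (log2 fold change 0.15, SE 0.11, adjusted p = 0.283). MHC class I genes are near copies of each other, so their split is uncertain. Nlrc5, the transactivator of class I genes, had 19, 6 and 5 counts in the wild-type libraries and 11, 10 and 8 counts in the Ts1Cje libraries and did not pass (log2 fold change −0.01, SE 0.57, adjusted p = 0.987). Patl2 covers the whole of B2m on the opposite strand and was also higher, with 162 counts over the 6 libraries against 2826 for B2m.

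Of 23 other tested class I presentation genes, 4 rose and 7 fell (47.8% passed, near the 43.8% of all tested genes). Those that rose include the chaperones Calr (log2 fold change 0.94, SE 0.07, adjusted p = 1.01e-05), Pdia3 (log2 fold change 0.85, SE 0.07, adjusted p = 1.16e-05) and Hspa5 (log2 fold change 0.60, SE 0.06, adjusted p = 5.33e-05), which fold many proteins of the endoplasmic reticulum besides class I. Erap1, which trims peptides in that compartment, fell (log2 fold change −1.17, SE 0.10, adjusted p = 1.83e-05). Unlike H2-D1, the class I heavy chain genes H2-Q4 (log2 fold change −0.78, SE 0.15, adjusted p = 0.00204), H2-T22 (−0.73, 0.13, 0.00167) and H2-Q7 (−1.15, 0.29, 0.00873) fell as well. No other H2 gene of this list passed.

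The B2m promoter holds 1 ISRE core, and Psmb8 holds 1 GAS core, shown because these presentation genes had a match in their window and passed the test. The stretches are chr2:122147493-122147612 and chr17:34198087-34198116, both on the plus strand of GRCm38.p6 and from RefSeq, with the match in capitals. The B2m stretch runs from 194 to 75 bases before its start site, and the Psmb8 stretch from 108 to 79 bases before its own RefSeq start, which lies inside the longer span annotated for Psmb8 in the count table.
B2m: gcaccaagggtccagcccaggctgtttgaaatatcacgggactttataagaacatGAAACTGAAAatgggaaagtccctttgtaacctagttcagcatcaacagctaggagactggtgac
Psmb8: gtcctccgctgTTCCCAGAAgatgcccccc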

How the data were processed

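The authors deposited raw counts per gene and, in a second table, TPM for the same 6 libraries. The submitters' processing notes name HISAT2 2.1.0, featureCounts 1.6.3, Trimmomatic 0.38 and FastQC 0.11.7, and the genome mm10. The library kit is directional, but neither the strand setting in counting nor the treatment of multi-mapping reads is given in the sources used here, so overlapping genes and near copies cannot be separated with certainty. Counts were tested in edgeR 4.0.16 (R 4.3.3): filterByExpr with a minimum count of 10 and a minimum total of 15, TMM scaling, a robust quasi-likelihood fit of genotype with no covariate, and p-values adjusted by Benjamini-Hochberg over every gene that passed the filter. The SE is approximate (the size of the log2 fold change divided by the root of its F statistic). CPM values carry the TMM scaling. The deposited TPM were used to compare levels between genes, for summed levels of lists, for subunit ratios and in alternative fits named below. Intervals on summed counts are exact, at 95%, and cover counting error only. The reads carry no molecular identifiers.

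Every member is named. From each other list, up to 4 genes with the smallest adjusted p are named, with Ifnar1, Ifnar2, Ifngr1, Jak1, Ifnb1, Psmb5, Psmb6, Psmb7 and Ptprc whatever their values; some genes that this rule names are not reported here. The other genes named, such as overlapping neighbours, were chosen after their values were seen. Members and lists were chosen with earlier results of these data known. Alternatives were DESeq2 1.42.0 size factors and test, upper-quartile scaling, other filters, limma 3.58.1 on counts (voom) and on log2(TPM + 1) and log2(TPM + 0.1), a replicate block, and leaving out each library. Scripts were tested on simulated data.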

Additional observations from a re-analysis of the deposited data

How the results depend on the processing

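Across 15 alternatives, 455 of 463 values of the 32 tested members kept their side of the threshold, and 8 kept the direction but no longer passed. None of the 19 members that passed in the main fit changed direction. For members that did not pass there, a change of sign was not counted. The 8 were Isg15 and Irf2, each in 4 settings. Irf2 also failed with limma on log2(TPM + 1) (adjusted p = 0.0544) and on log2(TPM + 0.1) (0.0587), and the count of lower STAT and IRF factors was then 1 in place of 2, as it was without wild-type replicate 2 or 3 (range 1 to 2 over the left-out libraries). A filter of mean log2 CPM of at least 1 left out Isg15, Xaf1 and Oas1a, so 1 effector in place of 3 was higher. The other 197 values compared were counts over all genes, the members and their classes, the subunit ratios and the share of members with the ISRE core. Counts moved by at most 1.5 times, ratios by less than their spread, and the ISRE share stayed within its interval. Counts in the other lists are not among these values, and some moved by more, as given above. The lots share the numbers 1 to 3 in both genotypes. Same-numbered libraries correlated in their deviations by 0.219, 0.0589 and 0.202, which does not show pairing, though each correlated best with its own number. With the replicate block, the same 19 members passed and none was added. Depth limits the 8 untested members, for which only large differences could be seen.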

Other observations

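Of the OAS genes outside the 40, Oas1b (log2 fold change 1.74, SE 0.45, adjusted p = 0.0106) and Oas1c (log2 fold change 1.76, SE 0.42, adjusted p = 0.00709), which resemble Oas1a in sequence and may share reads with it, were higher in Ts1Cje. The Oas1b call was lost without Ts1Cje replicate 1 (adjusted p = 0.0515). Oas1g also passed (adjusted p = 0.00125) but had only 1, 0 and 1 counts in the wild-type libraries and 13, 12 and 13 counts in the Ts1Cje libraries, so no fold is given. Oas3, with 7, 5 and 2 counts in the wild-type libraries and 7, 12 and 3 counts in the Ts1Cje libraries, was not tested and its groups overlapped. These genes were chosen after their values were seen.

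Among the GTPases of the wider interferon-stimulated list, Gbp3 (log2 fold change −3.48, SE 0.34, adjusted p = 3.39e-05) and Gbp7 (log2 fold change −2.75, SE 0.43, adjusted p = 6.39e-04) fell beside Gbp2 and Irgm1. Gbp3 had 91, 65 and 98 counts in the wild-type libraries and 7, 5 and 10 counts in the Ts1Cje libraries, and Gbp7 had 63, 93 and 84 counts in the wild-type libraries and 14, 3 and 18 counts in the Ts1Cje libraries, so the groups did not overlap in either gene. Gbp2, Gbp3 and Gbp7 lie near each other on chromosome 3, between 142530342 and 142638008 on mm10. A stretch of chromosome 3 was seen to move in earlier results of these data, and its part in these falls was not tested. Igtp, a related GTPase, did not pass (log2 fold change 0.20, SE 0.19, adjusted p = 0.419), and Iigp1 had 0 counts in every library.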
